A study of Rattus norvegicus with 10 samples.

Results

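The change of tissue miRNAs between 1 h and 34 days of mechanical stimulation was measured in 4 small RNA libraries, out of 10 in the series. The members are the libraries that the labels assign to the stimulated (acupuncture) arm, 2 at 1 h (MS_E) and 2 at 34 days (MS_A). All came from female Wistar rats in which collagen-induced arthritis (CIA), a model of rheumatoid arthritis, had been raised with bovine type II collagen. Stimulation was given by needle puncture with brief twirling, on both sides of the lower back and of the leg, in repeated sessions until 34 days. The remaining 6 libraries are from CIA rats before therapy (CIA_B) and at 1 h and 34 days of placebo, a saline injection into the peritoneum (PLA_E, PLA_A), with 2 libraries each. All animals were shaved and were sacrificed at sampling, so that the libraries of the time points come from different rats. The comparison is thus between early and late stimulated animals. Time since therapy began, number of sessions, disease stage and age cannot be told apart within the arm. The tissue is described as subcutaneous tissue with the muscle under the skin, and the labels call it muscle, whereas the design text of the series also speaks of blood samples.

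A miRNA is a short RNA that guides the silencing complex to messages carrying a match to its seed, the bases 2 to 8 from its 5′ end, and lowers their translation and stability. Several miRNAs are known for particular cells. miR-1, miR-206 and miR-133 are abundant in skeletal muscle, miR-499 and miR-208b are encoded in myosin genes of slow fibres, the miR-200 family is found in epithelia, and the miR-34 and miR-449 families in multiciliated epithelia and in the male germline. Other miRNAs are made from imprinted loci that are active in growth and repair, such as miR-675 from the H19 transcript and the large cluster between Dlk1 and Dio3.

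A miRNA is called differential here where its change exceeds 2-fold and its p before adjustment is under 0.05, the criteria of the original differential analysis. In this sense 14 of the 359 miRNAs tested differed between MS_A and MS_E. Lower levels at 34 days were found for 13 and a higher level for 1. The mature sequences of those with an entry in RefSeq (assembly GRCr8) are printed here with the seed in capitals, ordered by what they share, because the results turn on these miRNAs. Of the 14, 13 had an entry. miR-200b-3p is named only.

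The following pair shares the seed GGCAGUG although the genes lie on different chromosomes, miR-34c on chromosome 8 and miR-449a on chromosome 2.
miR-34c-5p: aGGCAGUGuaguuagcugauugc
miR-449a-5p: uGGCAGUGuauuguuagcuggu

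The next pair shares the seed AUUGCAC, that of miR-25 and miR-92a, and comes from paralogs of the miR-17/92 cluster or its relatives.
miR-363-3p: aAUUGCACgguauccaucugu
miR-92b-3p: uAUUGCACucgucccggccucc

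Both arms of the miR-675 hairpin, at chr1:207161766-207161786 (3p) and chr1:207161800-207161821 (5p) on the minus strand, lie within the H19 gene, a noncoding RNA of imprinted expression.
miR-675-3p: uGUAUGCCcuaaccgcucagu
miR-675-5p: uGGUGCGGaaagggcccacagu

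A further set of arms stems from the Dlk1-Dio3 region of chromosome 6 on the plus strand. miR-136 overlaps the gene Rtl1 (chr6:134331383-134331404), and miR-299a and miR-382 overlap noncoding genes downstream (chr6:134545075-134545096 and chr6:134569992-134570012).
miR-136-3p: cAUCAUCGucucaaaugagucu
miR-299a-5p: uGGUUUACcgucccacauacau
miR-382-3p: aAUCAUUCacggacaacacuu

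The others are miR-141-3p of the miR-200 family, miR-375-3p of endocrine and secretory cells, miR-184 of surface epithelia and miR-30e-5p, which lies in the gene Nfyc and was the one miRNA at a higher level.
miR-141-3p: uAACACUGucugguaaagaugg
miR-375-3p: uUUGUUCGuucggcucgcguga
miR-184: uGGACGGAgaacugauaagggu
miR-30e-5p: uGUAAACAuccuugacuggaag

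The libraries held 8926170 and 5144552 reads on miRNAs in MS_E and 6244356 and 7067292 in MS_A, with 1513799 to 8926170 over the series. Levels are given as counts scaled to library size (cpm), with the TMM correction that edgeR makes for unequal composition of the libraries. On this scale 3 reads correspond to 0.366 to 0.712 cpm in these 4 libraries. The libraries differed within each group in their muscle miRNAs. miR-1-3p stood at 11907 and 100684 cpm in MS_E and at 12060 and 122986 cpm in MS_A, replicate 2 being the high library at both times, and miR-206-3p at 1666 and 16100 against 1532 and 12034 cpm. The most abundant miRNA, miR-10b-5p of the Hox clusters, showed the reverse, with 713640 and 143118 cpm in MS_E and 551684 and 87833 cpm in MS_A. The defining miRNAs of muscle were thus found in each library, and miR-1-3p and miR-206-3p differed between replicates far more than between the times. In these bulk samples fewer cells of a type and less RNA per cell cannot be told apart.

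No miRNA passed adjustment for the 359 tests. The smallest Benjamini-Hochberg adjusted p of the quasi-likelihood test of edgeR was 0.731, and all 14 miRNAs with an unadjusted p under 0.05 also passed the fold threshold. limma-voom gave no adjusted call either, and DESeq2 gave 5 (miR-141-3p, miR-184, miR-375-3p, miR-449a-5p and miR-675-3p). The 14 are 3.9% of the miRNAs tested, 3.62% lower and 0.279% higher at 34 days. The median log2 fold change of all miRNAs tested, given throughout as 34 days minus 1 h, was 0.02.

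miR-675-3p was the one miRNA of the 14 that passed the thresholds whichever of the 4 libraries was left out. It stood at 32.4 and 43.6 cpm at 1 h and at 8.78 and 10.8 cpm at 34 days. The groups did not overlap, and the 6 libraries before therapy or under placebo lay between them, from 11.3 to 19.2 cpm. MS_E was therefore the high group of the series. MS_A held the lowest values, but its replicate 2 all but coincided with CIA_B (11.25 and 11.32 cpm), where replicate 1 had 13 reads. The order of MS_A and CIA_B can thus not be read. The log2 fold change was -1.91 (standard error 0.45, unadjusted p = 0.00206, adjusted p = 0.731 in edgeR), a ratio of group means of 3.87. It was between -2.06 and -1.82 and past the thresholds in 12 of 12 alternative analyses, and in 4 of 4 that left out a library.

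miR-675-5p, the other arm of the hairpin, was rare, with 28 and 41 reads at 1 h and 8 and 9 reads at 34 days. These were 4.32 and 6.40 cpm against 1.90 and 1.097 cpm, again without overlap. Its log2 fold change was -1.64 (standard error 0.56, edgeR unadjusted p = 0.0163, adjusted p = 0.731), past the thresholds in 11 of 11 alternatives that tested it and in 2 of 4 that left out a library. The arms share a hairpin and are no independent evidence of each other. From the neighbouring imprinted gene Igf2 both arms of miR-483 were tested. Neither was differential, with log2 fold changes of -0.79 (miR-483-5p, standard error 0.81) and -0.49 (miR-483-3p, standard error 0.68), and their groups overlapped.

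**Figure D1:**
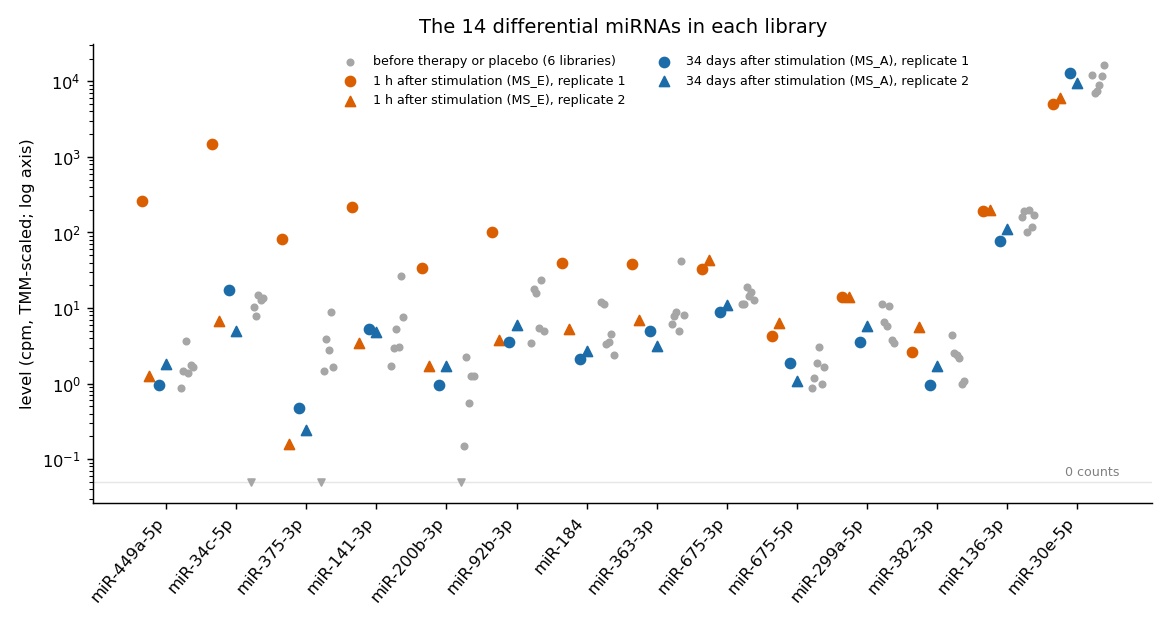
Level of each of the 14 differential miRNAs in each library (cpm after TMM scaling, log axis), with orange for 1 h and blue for 34 days of stimulation, circles and triangles for replicates 1 and 2, and grey for the 6 libraries before therapy or under placebo. For 7 miRNAs on the left MS_E replicate 1 stands apart from all other libraries, whereas both MS_E libraries of miR-675-3p lie above the other 8.

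A second group was high in 1 library. The 13 miRNAs with lower levels at 34 days were chosen for high levels in MS_E, so that a high MS_E library is in part fixed by the choice. MS_E replicate 1 was the highest of the 10 libraries for 8 of the 13 (60 of all 359 miRNAs tested), a count that is no evidence about that library. For miR-299a-5p, described with its cluster, the margin over MS_E replicate 2 was small, and the other 7 are given here together with miR-363-3p, which was also far higher in replicate 1 of MS_E than in replicate 2. miR-34c-5p stood there at 1497 cpm (9693 reads) and at 6.71 cpm in MS_E replicate 2, with 17.6 and 4.998 cpm in MS_A. miR-449a-5p stood at 258 and 1.25 cpm at 1 h and at 0.949 and 1.83 cpm at 34 days. In both, MS_E replicate 2 lay within the range of MS_A, and the highest of the other 9 libraries was exceeded by factors of 85.2 and 71.4. miR-34a-5p, the remaining tested miRNA with their seed, had a log2 fold change of 0.04.

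The same library held 220 cpm of miR-141-3p, against 3.44 cpm in MS_E replicate 2 and 5.22 and 4.88 cpm in MS_A. miR-92b-3p stood at 101 and 3.75 cpm against 3.56 and 5.97 cpm. For these 2 as well the groups overlapped, MS_E replicate 2 lying below MS_A for miR-141-3p and within its range for miR-92b-3p. miR-375-3p had 526 reads in MS_E replicate 1, 1 in MS_E replicate 2 and 2 in each MS_A library. As MS_A had so few reads, its ratio of 1 h over 34 days is given from the pooled reads, 127 with an exact 95% interval of 49.3 to 468, which covers counting error only.

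miR-184 stood at 39.8 and 5.31 cpm at 1 h and at 2.14 and 2.68 cpm at 34 days. miR-200b-3p stood at 34.1 and 1.72 cpm against 0.949 and 1.71 cpm, and miR-363-3p at 38.3 and 6.87 cpm against 4.98 and 3.17 cpm. For all of these the groups did not overlap, though for miR-200b-3p the nearest libraries all but coincided. miR-363-3p was nevertheless highest in PLA_A replicate 1 (42.1 cpm).

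When MS_E replicate 1 was left out, these 8 miRNAs no longer passed the thresholds. The log2 fold changes of miR-34c-5p, miR-375-3p, miR-449a-5p, miR-141-3p and miR-92b-3p changed sign, from -6.03, -5.84, -6.18, -4.37 and -3.36 to 0.72, 0.44, 0.20, 0.55 and 0.39. Those of miR-200b-3p, miR-184 and miR-363-3p went from -3.40, -3.04 and -2.38 to -0.22, -0.97 and -0.68. Without that library 4 miRNAs were differential, of which miR-675-3p, miR-675-5p and miR-382-3p were among the 14 and miR-99a-3p, at a log2 fold change of 1.503, was not. miR-299a-5p (-1.44), miR-136-3p (-1.02) and miR-30e-5p (0.93) kept similar values and missed a threshold.

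**Figure D2:**
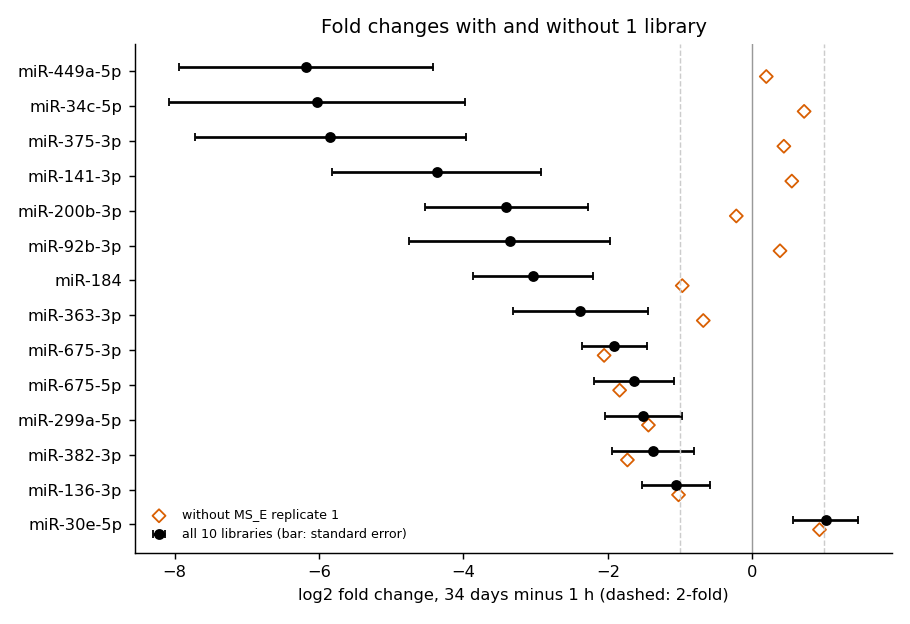
Log2 fold change of the 14 differential miRNAs, 34 days minus 1 h, from the fit on all 10 libraries (black, with standard error) and without MS_E replicate 1 (orange diamonds), with dashed lines at 2-fold. The 8 miRNAs at the top move to values between -0.97 and 0.72, and the 6 at the bottom stay near their values.

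The miRNAs that did not reach 1 cpm in 5 libraries, 364 of the 723 in the files, were not tested but bear on that library. Of them 144 had no read in any library. MS_E replicate 1 had 13470 reads on the 364, the other 9 libraries between 45 and 376. In a list chosen after the values were seen, of miRNAs below the filter with at least 50 reads in 1 of the 4 libraries, all 13 were highest in MS_E replicate 1. Those with the most reads were miR-871-3p with 6414, against at most 2 in any other library, and miR-202-5p with 4976, against at most 1. miR-34b-5p (455 reads), miR-34b-3p (260), miR-34c-3p (100) and miR-449c-5p (92) extend the families named above, and miR-429 (85) is a member of the miR-200 family.

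The leading pair is shown because it was all but absent elsewhere. miR-871 belongs to a group of hairpins on the X chromosome (chrX:150478590-150478611 for the 3p arm, minus strand) known from the germline and the reproductive tract of rodents, and miR-202 (chr1:204184390-204184408, minus strand) is known from the gonads.
miR-871-3p: uGACUGGCaccauacuggauaa
miR-202-5p: uUCCUAUGcauauacuucu

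Further arms of the X-linked group were found in MS_E replicate 1, miR-463-5p with 104 reads, miR-883-3p with 85, miR-471-3p with 30, miR-471-5p with 25 and miR-878 with 14. Others of the group, miR-741-3p, miR-743a-3p, miR-743b-3p, miR-880-3p and miR-881-3p, had 0 reads there, and at most 8 in MS_E replicate 2. The opposite arms of some of these hairpins had reads in MS_E replicate 1, miR-743b-5p 16, miR-743a-5p 9 and miR-741-5p 7, against at most 2 in any other library. The labels give female rats and the same tissue for all 10 libraries. The part of this RNA in the differences of the 8 miRNAs was not tested.

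**Figure D3:**
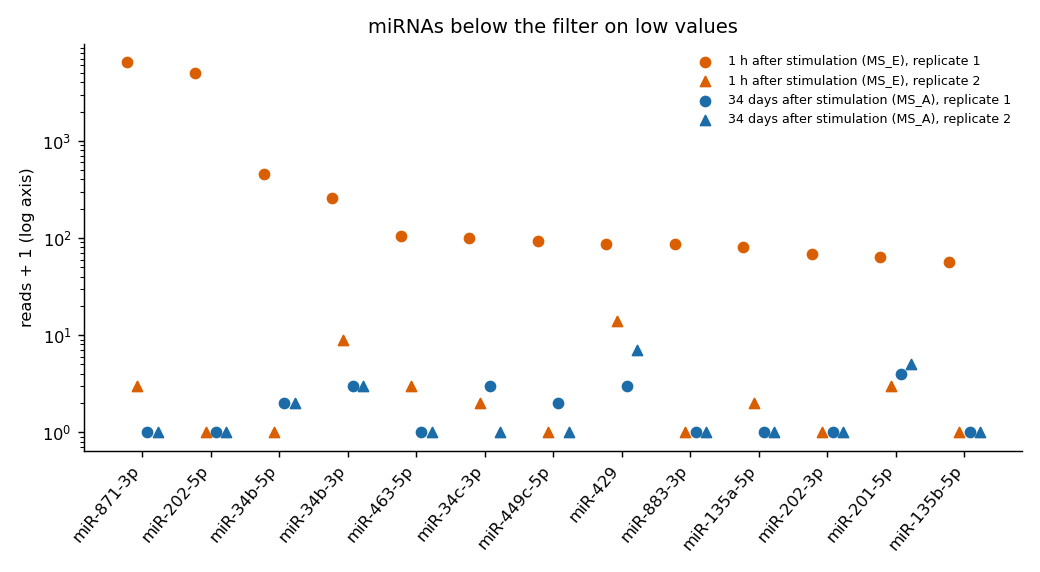
Reads plus 1 (log axis) of the 13 miRNAs below the filter with at least 50 reads in 1 of the 4 libraries, with orange for 1 h, blue for 34 days, and circles and triangles for replicates 1 and 2. MS_E replicate 1 lies above the other 3 libraries for each, and the others have 0 to 13 reads.

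The third group of lower miRNAs comes from the Dlk1-Dio3 cluster, whose maternally expressed miRNAs are known from developing and regenerating muscle. miR-136-3p stood at 193 and 199 cpm at 1 h and at 76.4 and 112 cpm at 34 days. Its log2 fold change was -1.05 (standard error 0.46, edgeR unadjusted p = 0.0491, adjusted p = 0.906). miR-299a-5p stood at 14.1 and 13.9 cpm against 3.56 and 5.73 cpm, and its log2 fold change was -1.51 (standard error 0.53, edgeR unadjusted p = 0.0191, adjusted p = 0.761). For miR-382-3p, with 17 and 36 reads against 4 and 14, the fold change was -1.38 on the log2 scale (standard error 0.57, edgeR unadjusted p = 0.0384, adjusted p = 0.906). In all 3 the groups did not overlap and the replicates at 1 h were close for miR-136-3p and miR-299a-5p. miR-136-3p passed the thresholds in 6 of 12 alternatives and in 0 of 4 that left out a library, miR-382-3p in 3 of 10 and 2 of 4, and miR-299a-5p in 10 of 11 and 2 of 4.

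Of the 53 tested miRNAs of the cluster, out of 84 listed, 3 were called lower and 0 higher, 5.66% lower against 3.62% over all miRNAs. A negative log2 fold change was found for 49 of the 53 (92.5%), against 170 of 359 (47.4%), and the median was -0.94 against 0.02. Both MS_A libraries lay below both MS_E libraries for 29 of the 53 (54.7%), and above for 0. Over all miRNAs 15.6% lay below and 16.7% above in this way. The summed level of the 53 was 5820 and 5965 cpm at 1 h and 2650 and 3679 cpm at 34 days, so that the groups did not overlap. It was 5675 and 4674 cpm before therapy.

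The most abundant members of the cluster were not differential. miR-127-3p, from the antisense transcript of Rtl1, stood at 3579 and 2258 cpm against 1523 and 1451 cpm (log2 fold change -0.97, standard error 0.54). miR-434-3p stood at 470 and 1340 cpm against 202 and 661 cpm, overlapping (-1.07, standard error 0.69). miR-411-5p stood at 583 and 798 cpm against 415 and 604 cpm, overlapping (-0.44, standard error 0.43), and miR-541-5p at 222 and 299 cpm against 128 and 191 cpm (-0.71, standard error 0.47). All 4 had lower group means at 34 days. The members are transcribed together and are not replicates of each other.

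The median of the cluster remained negative in each of 12 alternative analyses (-1.15 to -0.83) and in each of 4 that left out a library (-1.44 to -0.47). The count of called members did not keep its size. It was 0, of 9 called over all miRNAs, when only the library size was used for scaling. With a term for the division of the libraries by miR-1 it was 10, of 29 over all. The median was -1.44 without MS_A replicate 2 and -0.47 without MS_A replicate 1, the library with the lower levels. In the placebo arm 49 of the 53 also had a negative log2 fold change from 1 h to 34 days (92.5%, against 44.85% of all miRNAs). The median there was -0.62, against 0.07 over all, and 2 were called lower, against 3 of all 359. Both PLA_A libraries lay below both PLA_E libraries for 14 of the 53, against 32 of all 359. The summed level in that arm was 2892 and 5312 cpm at 1 h and 2230 and 2821 cpm at 34 days. No member was differential in the test of the difference between the arms.

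miR-30e-5p was the single miRNA at a higher level, with 4992 and 5983 cpm at 1 h and 12795 and 9435 cpm at 34 days. The groups did not overlap, but the 6 other libraries, at 7123 to 16580 cpm, lay above both MS_E libraries. The log2 fold change was 1.02 (standard error 0.45, edgeR unadjusted p = 0.0491, adjusted p = 0.906), just past both thresholds, and it passed them in 2 of 12 alternatives and in 0 of 4 that left out a library. In the placebo arm the log2 fold change was 0.79 (standard error 0.45). Of the 11 tested miRNAs of the miR-30 family, which is abundant in many differentiated tissues, 10 had a positive log2 fold change (90.9% against 52.6% of all), with a median of 0.56 that was positive in each of 12 alternatives (0.35 to 0.63) and in each of 4 that left out a library (0.30, without MS_A replicate 1, to 0.79). miR-30a-5p, the most abundant, stood at 59932 and 26648 cpm against 93454 and 44498 cpm, so that its replicates differed by more than the times.

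Of the slow-fibre miRNAs none was differential in edgeR on all 10 libraries (0 of 3, against 3.9% of all miRNAs), and miR-499-5p lay just outside the p threshold. In 7 of 12 alternatives 1 or 2 of the 3 were called higher. Over all miRNAs DESeq2 called 2 higher and the replicate block 1, and 1 each of these was in this list. With a term for the division of the libraries by miR-1, 8 were called higher over all and 2 in this list. miR-499-5p, encoded in the myosin gene Myh7b, stood at 23.8 and 34.8 cpm at 1 h and at 156 and 56.0 cpm at 34 days. Its log2 fold change was 1.84 (standard error 0.82, edgeR unadjusted p = 0.0507, adjusted p = 0.906). miR-208b-3p, encoded in Myh7, stood at 32.7 and 59.6 cpm against 247 and 83.1 cpm (log2 fold change 1.83, standard error 1.05, edgeR unadjusted p = 0.116). In both the groups did not overlap and MS_A replicate 1 was the higher library at 34 days. The miRNAs next to miR-499-5p on the outer side of the p threshold were miR-434-5p (log2 fold change -1.09, edgeR unadjusted p = 0.0507) and miR-200a-3p (-2.43, edgeR unadjusted p = 0.0511), and on the inner side stood miR-136-3p and miR-30e-5p.

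The third slow-fibre miRNA tested, miR-499-3p, comes from the same hairpin as miR-499-5p and had 1 and 2 reads in MS_E and 2 and 14 in MS_A, so that its order between MS_E replicate 2 and MS_A replicate 1 cannot be read. Pooled, these were 3 reads in MS_E and 16 in MS_A, an edgeR unadjusted p of 0.122 and a ratio of 5.53 with an exact 95% interval of 1.58 to 29.6 for counting error only. The median of their log2 fold changes, 1.83, was positive in each of 12 alternatives (1.42 to 2.07) and in each of 4 that left out a library (0.96 to 2.32). The summed level was 56.7 and 94.8 cpm at 1 h against 403 and 141 cpm at 34 days, and 829 and 586 cpm before therapy. Under placebo it was 372 and 114 cpm at 1 h and 1033 and 143 cpm at 34 days. MS_E held the lowest values of the series, with PLA_E replicate 2 not far above. The median log2 fold change under placebo was also positive, at 1.04. Of the 3, 0 were differential between the arms, against 3.34% of all miRNAs. None of the skeletal muscle miRNAs was differential (0 of 6), a count too small to read against the 3.9% of all miRNAs. miR-133a-3p stood at 67933 and 93926 cpm against 123007 and 128738 cpm, without overlap (log2 fold change 0.64, standard error 0.51), and the miR-1-3p values overlapped, with 0.26 (standard error 1.53).

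**Figure D4:**
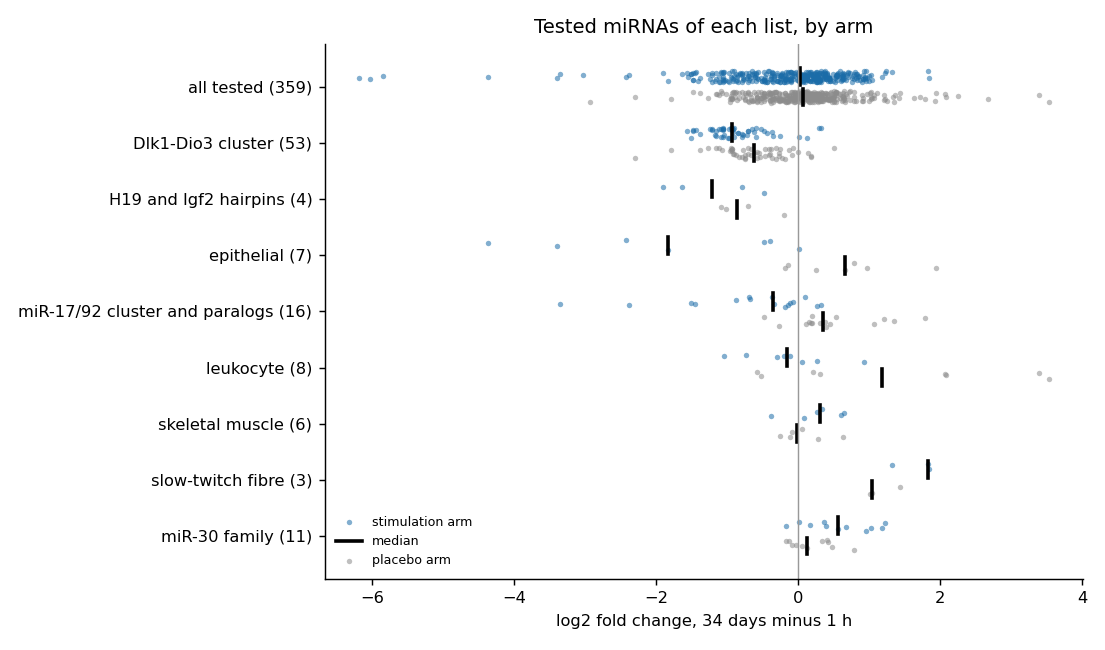
Log2 fold change from 1 h to 34 days of the tested miRNAs of 8 lists and of all 359 miRNAs, each dot a miRNA, in the stimulation arm (blue) and the placebo arm (grey), with black bars at the medians. The Dlk1-Dio3 cluster lies mostly below 0 in both arms (medians -0.94 and -0.62) and the slow-fibre miRNAs above 0 in both (1.83 and 1.04).

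Among epithelial miRNAs 2 of 7 (28.6%) were called lower, miR-141-3p and miR-200b-3p, against 3.62% of all miRNAs, and neither was called without MS_E replicate 1. MS_E replicate 1 was the highest library for 6 of the 7, against 60 of all 359 miRNAs tested. The summed level there was 439 cpm, against 118 cpm in MS_E replicate 2 and 124 and 80.1 cpm in MS_A. The skin miRNAs miR-205 (69.2 and 59.0 against 66.2 and 30.8 cpm) and miR-203a-3p (68.4 and 41.5 against 45.3 and 33.0 cpm) were not differential and their groups overlapped. Of the list for ciliated or secretory epithelium, both miRNAs tested were called lower, miR-34c-5p and miR-449a-5p, against 3.62% of all miRNAs, and both calls rest on MS_E replicate 1.

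In the miR-17/92 cluster and its paralogs, which are known for proliferating cells, 2 of 16 (12.5%) were called lower, against 3.62% of all miRNAs. These were miR-363-3p and miR-92b-3p, with log2 fold changes of -0.68 and 0.39 without MS_E replicate 1. That library was the highest for 6 of the 16, against 60 of all 359 miRNAs tested. The median was -0.36, against 0.02 over all, and 13 of the 16 (81.2%) were below 0, against 47.4% of all. The most abundant were not differential. miR-92a-3p stood at 1774 and 577 against 839 and 619 cpm, miR-25-3p at 773 and 553 against 862 and 552 cpm, miR-93-5p at 177 and 294 against 227 and 208 cpm, and miR-19b-3p at 102 and 85.7 against 73.8 and 43.6 cpm. Only for miR-19b-3p among these 4 did the groups not overlap.

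No leukocyte miRNA was differential (0 of 8), which at the 3.9% found over all miRNAs is no result about them. miR-146b-5p, induced by inflammatory signals, stood at 7430 and 2307 cpm against 3181 and 1521 cpm, and miR-146a-5p at 2815 and 1271 cpm against 1630 and 832 cpm. miR-150-5p of lymphocytes stood at 256 and 1381 against 473 and 1488 cpm, and miR-142-5p of all blood cells at 258 and 303 against 263 and 226 cpm. The groups overlapped for all 4. The lists for the miR-183 cluster (2 tested), erythroid cells (3), endothelium (5), smooth muscle (4), fibroblasts (3), the collagen-repressing miR-29 family (6), injury-induced miRNAs (7), let-7 (18), neural cells (3) and cartilage (2) had 0 called members each, and lists of this size hold few or none at a share of 3.9%. miR-21-5p, an injury-induced miRNA, and the fibroblast miR-199a-3p were thus not among the differential miRNAs.

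The same interval in the placebo arm gave 10 differential miRNAs (2.79%), 7 higher and 3 lower at 34 days, and none of the 14 was among them. As a call in 1 arm only is no difference between arms, the difference itself was tested, as the change under stimulation minus the change under placebo. With the same 2 criteria 12 miRNAs (3.34%) differed, all with a more negative change under stimulation. Among the 14 are 7 of them (miR-141-3p, miR-363-3p, miR-675-3p, miR-375-3p, miR-184, miR-449a-5p and miR-34c-5p). As this test holds the same change under stimulation that chose the 14, the overlap is no further evidence for them. All adjusted p of edgeR were at least 0.993.

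For miR-675-3p the difference of the log2 fold changes was -1.71 (standard error 0.62, edgeR unadjusted p = 0.0219). Its placebo values were 19.2 and 14.6 cpm at 1 h and 16.4 and 12.9 cpm at 34 days, which overlap. Without MS_E replicate 1 the difference was -1.82, past the thresholds, and without PLA_A replicate 1 it was -1.61 with an unadjusted p of 0.0526 in edgeR. Over all alternatives, leave-outs included, it passed the thresholds in 14 of 20. For miR-141-3p, miR-184, miR-34c-5p, miR-375-3p and miR-449a-5p, the differences of -6.31, -3.01, -6.25, -6.44 and -5.67 became -1.32, -0.91, 0.50, -0.08 and 0.73 without MS_E replicate 1. For miR-363-3p the difference went from -4.16 to -2.37 and no longer passed, and it was -2.73 without PLA_A replicate 1, its highest library.

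Of the 5 that were not among the 14, 3 had a high library in the placebo arm. miR-142-5p, of blood cells, stood at 5855 and 551 cpm in PLA_A and at 372 and 240 cpm in PLA_E, with a difference between the arms of -3.58. miR-342-3p stood at 275 and 9.12 cpm in PLA_A (difference -4.10) and miR-15b-5p at 116 and 21.0 cpm (difference -2.70). Without PLA_A replicate 1 the differences of these 3 were -1.13, -0.29 and -1.13, and none passed the thresholds. The remaining pair, miR-19a-3p and miR-19b-3p of the miR-17/92 cluster, shares the seed GUGCAAA. Their levels in MS_E (16.5 and 7.18, and 102 and 85.7 cpm) were above those in MS_A (3.80 and 4.02, and 73.8 and 43.6 cpm), and in placebo the order was the opposite, without overlap in either arm. Their differences between the arms, -2.57 and -1.88, passed the thresholds in 12 of 18 and 8 of 20 alternatives that tested them, leave-outs included, and neither passed without MS_E replicate 1 (edgeR unadjusted p = 0.141 and 0.107).

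**Figure D5:**
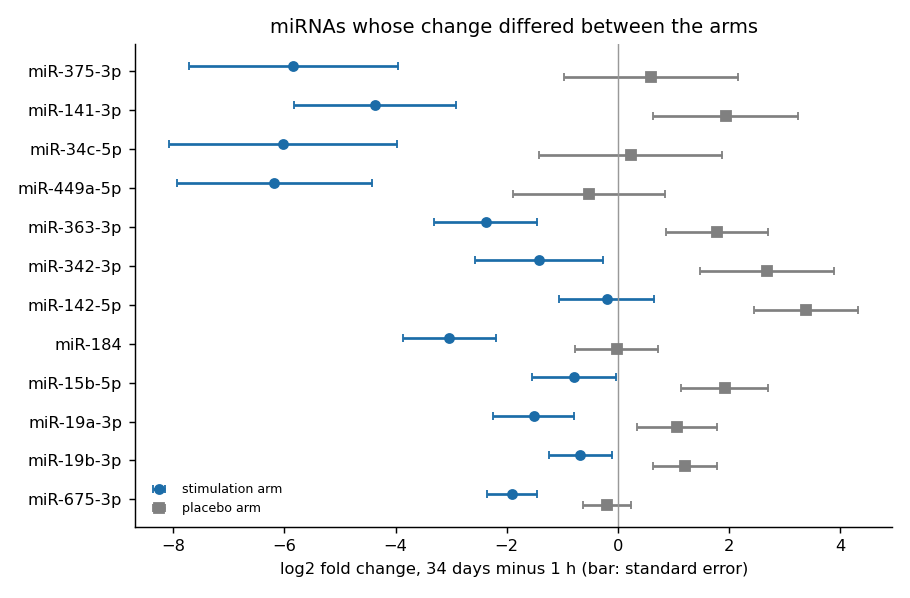
Log2 fold change from 1 h to 34 days with standard error under stimulation (blue circles) and placebo (grey squares) for the 12 miRNAs whose change differed between the arms by the thresholds of the study. The widest bars belong to miR-34c-5p, miR-375-3p and miR-449a-5p, which had 1 extreme library, and miR-675-3p has the narrowest.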

How the data were processed

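The authors sequenced TruSeq small RNA libraries on an Illumina HiSeq instrument, discarded short reads, aligned the others with Bowtie to rn4 and to rat sequences of miRBase with miRDeep2 (base calls by CASAVA 1.8), and deposited whole read counts per precursor, without normalization. The largest count of each mature miRNA over its precursors was used here. A table of the series was set aside, since the names of its 20 value columns fit none of the labels. Groups were taken from the labels, which give replicate numbers but do not say whether replicates are separate animals, so that p-values measure the spread between these libraries, which may be technical. Replicate counts differed far beyond sampling noise.

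The deposited counts were scaled by TMM and fitted with edgeR 4.0.16 (quasi-likelihood test, R 4.3.3, prior count 2), all 10 libraries together. Tested were the miRNAs that reached 1 cpm in 5 or more of the libraries. Differential means an unadjusted p under 0.05 and over 2-fold, as in the study, and adjustment is by Benjamini-Hochberg. An exact permutation test of 2 against 2 libraries cannot go below 0.333 and was not used. limma 3.58.1 (voom), DESeq2 1.42.0, other scalings and filters, summed counts, a replicate block, a term for the division by miR-1 and each library left out in turn were alternatives. The fit was tested on simulated data. Members and lists were chosen with earlier results of these data known. The named miRNAs are all differential ones, up to 4 of the most abundant of each list, the 5 most abundant and up to 10 of the smallest p between the arms, and any other is shown for its place beside a threshold, its seed or its library. RefSeq sequences and positions are of GRCr8, not of rn4, and 324 of the 359 miRNAs tested matched by name. Python 3.11.15 with pandas 2.3.3, scipy 1.17.1 and matplotlib 3.10.9 made tables and figures. Reads are not independent molecules, so that intervals describe counting error alone.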

Additional observations from a re-analysis of the deposited data

Results flagged for a closer look

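For 12 miRNAs the change from 1 h to 34 days differed between the arms by the thresholds of the study (edgeR, stimulation minus placebo, all adjusted p at least 0.993). The differences of log2 fold changes were -6.31 for miR-141-3p, -4.16 for miR-363-3p, -3.58 for miR-142-5p, -1.71 for miR-675-3p, -6.44 for miR-375-3p and -3.01 for miR-184. They were -5.67 for miR-449a-5p, -2.57 for miR-19a-3p, -2.70 for miR-15b-5p, -4.10 for miR-342-3p, -6.25 for miR-34c-5p and -1.88 for miR-19b-3p. The 12 are 3.34% of the miRNAs tested, and single libraries carry several of them. Without MS_E replicate 1 the differences were 0.50 for miR-34c-5p and 0.73 for miR-449a-5p. Without PLA_A replicate 1 that of miR-342-3p was -0.29.

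Among miRNAs that were too rare in the series to be tested, 2 stood in MS_E replicate 1 far above the libraries before therapy and under placebo. miR-871-3p had 6414 reads there, and miR-202-5p had 4976.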

How the results depend on the processing

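Each library carries much of the result, since groups hold 2. The count of differential miRNAs, 14 for MS_A against MS_E, ran from 4 (without MS_E replicate 1) to 30 (without MS_E replicate 2) when a library was left out, with 6 without MS_A replicate 1 and 24 without MS_A replicate 2, and the adjusted count from 0 to 6. For the placebo arm (10) it ran from 2 to 22 and for the difference between the arms (12) from 3 to 17. The lone library of a group was then assumed to vary like the others.

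Among the other alternatives the count for MS_A against MS_E was 9 with library size only, 7 with limma-voom on the 4 libraries compared, 32 without a filter and 29 with a term for the division by miR-1, and DESeq2 gave 5 adjusted calls. The count for placebo was 5 with limma-voom, 4 with library size only, 1 with a mean of at least 100 counts, 3 and 1 with only the 4 libraries compared (edgeR and limma-voom) and 17 with the miR-1 term. That for the difference between the arms was 4 with limma-voom, 7 with library size only, 7 with a mean of at least 100 counts and 3 with limma-voom without CIA_B. The cause was not tested. Library size only moved the median of all miRNAs by -0.105. The split of calls was 11 higher and 19 lower without MS_E replicate 2, and 8 and 21 with the miR-1 term, against 1 and 13.

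With the replicate number as a block 14 miRNAs were differential for MS_A against MS_E, 11 of them among the 14, with 7 for placebo and 7 between the arms. The labels do not say that a number marks a shared batch. The differences of replicate 2 from replicate 1 correlated across miRNAs at 0.545 between MS_E and MS_A and at 0.587 between PLA_E and PLA_A, but at -0.544 to -0.276 between stimulation and placebo groups, so that the number ran in opposite directions in the 2 arms.

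With single libraries left out, log2 fold changes ran from -5.35 to 0.55 for miR-141-3p, -7.19 to 0.72 for miR-34c-5p, -6.82 to 0.44 for miR-375-3p, -7.16 to 0.20 for miR-449a-5p and -4.29 to 0.39 for miR-92b-3p. The difference between the arms ran from -7.41 to 0.50 for miR-34c-5p and -6.64 to 0.73 for miR-449a-5p. Each positive value is that without MS_E replicate 1.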
